A study of Mus musculus with 9 samples.

Results

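Osteoblast transcription factors are the nuclear proteins that turn a mesenchymal precursor into a cell that makes bone, and 8 of them were chosen by name for this account: Runx2, Sp7, Creb3l1, Dlx3, Dlx5, Dlx6, Msx2 and Twist1. A gene was measured where the array's annotation gave it at least 1 probe set (a group of short probes for 1 transcript) that it shared with no other gene, and the brightest such probe set over all arrays was used. This gave 7 of the 8 genes a value, from 9 probe sets, among 18194 genes in all. No probe set was listed for Runx2 alone, and it was not analysed here. The rule used no difference between the groups.

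RNA came from osteocyte-enriched shafts of the tibia of CD1 wild-type mice aged 16 to 18 weeks, an outbred stock, and was hybridised to 9 Affymetrix mouse arrays. There were 3 arrays from age-matched virgin mice, 3 from mice killed on day 12 of lactation, and 3 from post-lactation mice killed on day 7 after the pups had been taken away on lactation day 12. Litters held 8 to 13 pups. The shafts were cleared of soft tissue, marrow and surface cells by spinning and repeated enzyme digestion, and no label says whether an array stands for 1 mouse or for pooled mice, so p-values reflect only how much these samples vary. For post-lactation arrays the source label names virgin animals, against their titles, and the titles were followed. The study asked which genes take part in remodelling of the matrix around osteocyte lacunae.

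Osteocytes are osteoblasts that have become buried in the matrix they laid down, and they keep part of the osteoblast programme. In that programme Runx2 commits the precursor, and Sp7 (osterix), a zinc finger protein, acts after it and is required for bone formation. Dlx3, Dlx5, Dlx6 and Msx2 are homeodomain proteins that bind short AT-rich sites, with Dlx5 known as an activator and Msx2 as a repressor of osteoblast genes. Twist1 is a basic helix-loop-helix protein that holds Runx2 in check. Creb3l1 (OASIS) is held in the endoplasmic reticulum membrane until it is cut, and its freed part switches on type I collagen and secretory genes. Lactation draws mineral out of the maternal skeleton, and the skeleton is refilled after weaning.

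Values are log2 signals, and 1 unit is a doubling. The arrays fell into 3 array sets, each made of 1 array per group, that were recognised by exactly equal values. Pairs of arrays shared far fewer such values in set 1 (2.50% to 2.72%) than in set 2 (41.7% to 43.4%) or set 3 (36.1% to 44.1%). The array medians were 4.32 to 4.34 (set 1), 4.80 to 4.82 (set 2) and 4.57 (set 3). The virgin arrays 1, 2 and 3 belong to sets 1, 2 and 3. Of the lactation arrays, 3 is in set 1, 2 in set 2 and 1 in set 3. Of the post-lactation arrays, 1 is in set 1, 3 in set 2 and 2 in set 3. Differences are therefore given over all arrays, within each set, and from a second fit with the set as a block. A group mean below 4.87, the 40th percentile of gene means, is called dim. Among 14 genes with no role in female bone, such as Y-linked and sperm genes, the median level was 2.90 and 12 lay below that line. The tissue was checked with Sost, an osteocyte marker, which reached 13.39 and 13.55 in virgin arrays 2 and 3, 12.27 to 12.61 in lactation arrays and 11.59 to 13.00 in post-lactation arrays. Virgin 1 stood apart from these, with a Sost level of 8.14. Its 13 osteocyte markers lay on average 3.17 above the array's median, against 4.48 to 5.42 in the other 8 arrays.

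Sp7 (GRCm38.p6 chr15:102356603-102367035) lay above the dim level in every array. It measured 6.49, 7.96 and 8.05 in virgin arrays 1, 2 and 3, then 7.57, 8.03 and 7.81 in lactation arrays 1, 2 and 3, and 7.41, 7.59 and 7.96 in post-lactation arrays 1, 2 and 3. Virgin 1 was the lowest of the 9 and the other 8 lay close together, so the groups overlapped. Sp7 averaged 7.81 ± 0.23 in lactation arrays and 7.50 ± 0.87 in virgin arrays (SD, n = 3 each), a log2 difference of 0.31 with a 95% interval of -0.51 to 1.12. The difference was 1.32 in set 1, which holds virgin 1, 0.07 in set 2 and -0.47 in set 3. With the set as a block and virgin 1 left out it turned to -0.14 (SE 0.17). Post-lactation arrays averaged 7.65 ± 0.28, which differed by -0.15 from lactation (interval -0.97 to 0.66) and by 0.15 from virgin (interval -0.66 to 0.97).

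Creb3l1 (chr2:91982328-92024170) was the 1 gene of the 7 whose lactation and virgin arrays did not overlap. It measured 7.32, 7.73 and 7.07 in lactation arrays 1, 2 and 3, against 6.47, 7.01 and 7.05 in virgin arrays 1, 2 and 3. Every lactation array lay above every virgin array, although lactation 3 exceeded virgin 3 by a margin of only 0.02. Of all genes, 2.75% had groups that did not overlap in this comparison. The share of all genes without overlap and with lactation higher was 2.06%. The mean was 7.37 ± 0.34 in lactation and 6.84 ± 0.32 in virgin arrays, 1.44-fold higher. Within sets 1, 2 and 3 the log2 difference was 0.60, 0.72 and 0.27. Here 10.4% of all genes were higher in all 3 sets. Genes with exactly equal values in a set cannot enter this share, or the like shares given below. The difference of 0.53 (SE 0.32) was not called by limma (adjusted p = 1 over all genes), and with the set as a block its interval was 0.15 to 0.91 (SE 0.16, unadjusted p = 0.014, adjusted p = 0.376). It was 0.59 (SE 0.19) in the block fit without virgin 1, and 0.34 to 0.68 when any 1 array was left out of the fit without the block. An array left out of that fit leaves the sets unequal between the groups, so set offsets can enter this range.

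After weaning, Creb3l1 spread widely. It measured 6.44, 7.20 and 7.70 in post-lactation arrays 1, 2 and 3, from about the lowest virgin level to about the highest lactation level. The post-lactation mean of 7.11 ± 0.63 lay between those of the other groups and differed from neither beyond the spread. The differences were -0.26 from lactation (interval -0.97 to 0.45) and 0.27 from virgin (interval -0.44 to 0.98). Against lactation it was lower in all 3 sets, by -0.63, -0.04 and -0.12, a pattern that 16.1% of all genes showed.

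**Figure D1:**
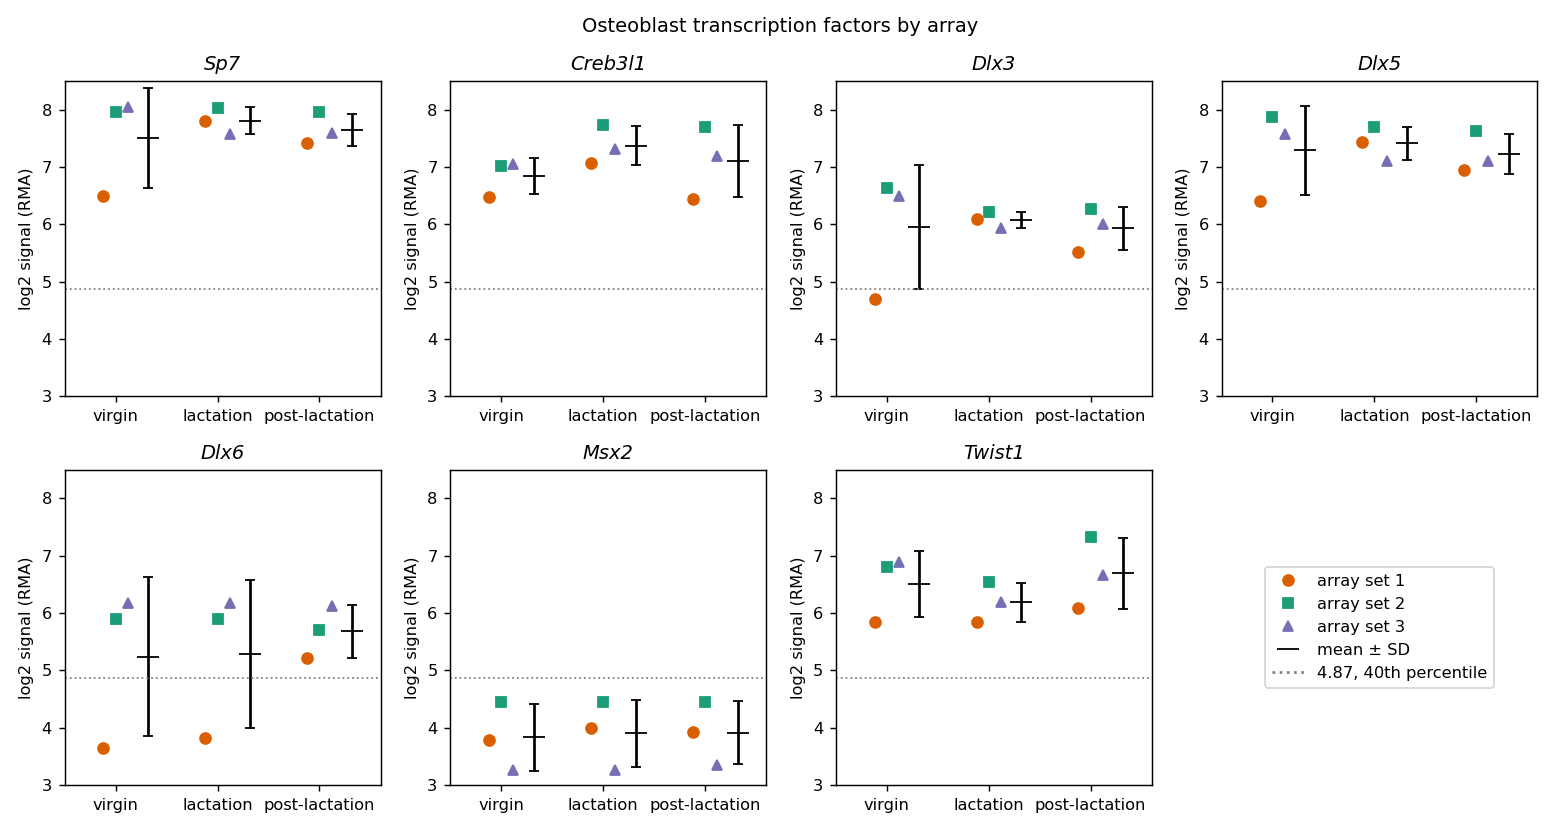
Log2 signal of 7 osteoblast transcription factors in virgin, lactation and post-lactation arrays, with point colour and shape for the array set, black bars for the mean ± SD of 3 arrays, and a dotted line at 4.87, the 40th percentile of gene means. Virgin 1 (set 1) is the lowest array for Sp7, Dlx3, Dlx5 and Dlx6, Creb3l1 has its 3 lactation points above its 3 virgin points, and every Msx2 point lies below the line.

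Genes of the secretory route that Creb3l1 serves were read beside it. Of 17 measured among 18, 12 had a higher and 5 a lower mean in lactation than in virgin arrays, with a median log2 difference of 0.07 (0.01 over all genes). In the block fit without virgin 1, 9 of the 17 were higher, with a median of 0.11. None was called in either fit, where the background was 0.0% of all genes without the block and 0.022% with it. At an unadjusted p under 0.05 the block fit held 6 that were higher and 2 that were lower, against 5.75% and 2.25% of all genes. Serpinh1, the collagen chaperone Hsp47, measured 10.04, 10.46 and 10.04 in lactation arrays 1, 2 and 3, against 8.79, 9.70 and 9.63 in virgin arrays 1, 2 and 3. All its lactation arrays lay above its virgin arrays (difference 0.80, SE 0.32, adjusted p = 1, and 0.233 with the block). Kdelr3, a receptor that returns proteins to the endoplasmic reticulum, measured 8.02, 8.48 and 8.13 in lactation arrays, against 7.47, 7.79 and 7.83 in virgin arrays, also without overlap. Fkbp14, a folding enzyme for collagen, differed by 0.47 (SE 0.25), and Copz2, a coat subunit of transport vesicles, by 0.50 (SE 0.35).

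The 2 genes lower at that p belong to the unfolded protein response. Hspa5, the chaperone BiP, differed by -0.29 with values of -0.30, -0.35 and -0.24 in sets 1, 2 and 3, and Xbp1, a transcription factor of that response, by -0.43 with -0.77, -0.31 and -0.20. Neither was called (adjusted p with the block 0.233 for Hspa5 and 0.569 for Xbp1). Both were singled out after their values were seen. In post-lactation against lactation arrays 5 of the 17 were higher and 12 lower, with a median of -0.13 (0 over all genes), and none was called. Serpinh1 differed by -0.56 and Sec23a, a coat protein for export from the endoplasmic reticulum, by -0.39. In post-lactation against virgin arrays 10 were higher and 7 lower, with a median of 0.05, again with none called.

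Dlx3 (chr11:95120117-95125296) and Dlx5 shared the low virgin 1 of Sp7. Dlx3 measured 4.70, 6.64 and 6.50 in virgin arrays 1, 2 and 3, then 5.93, 6.21 and 6.09 in lactation arrays, and 5.52, 6.01 and 6.27 in post-lactation arrays. Dlx5 measured 6.41, 7.88 and 7.58 in virgin arrays, then 7.11, 7.69 and 7.44 in lactation arrays, and 6.94, 7.11 and 7.62 in post-lactation arrays. For both genes virgin 1 was the lowest array of the 9 and virgin 2 the highest, so the virgin group spanned the other groups whole. After the mean of each set was subtracted, Pearson's r over the 9 arrays was 0.99 between Dlx3 and Dlx5, 0.94 between Sp7 and Dlx3 and 0.95 between Sp7 and Dlx5. The low virgin 1 enters each of these r, and r is given as a description only. In set 2, without that array, lactation minus virgin was 0.07 for Sp7, -0.43 for Dlx3 and -0.19 for Dlx5. In set 3 it was -0.47, -0.57 and -0.47.

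The means of these genes barely differed between groups while the sets went opposite ways. Dlx3 averaged 6.08 ± 0.14 in lactation and 5.95 ± 1.08 in virgin arrays, a difference of 0.13 (interval -0.83 to 1.09). Within sets 1, 2 and 3 that difference was 1.40, -0.43 and -0.57. Dlx5 averaged 7.41 ± 0.29 in lactation and 7.29 ± 0.78 in virgin arrays, a difference of 0.12 (interval -0.66 to 0.91), and 1.03, -0.19 and -0.47 within the sets. In the block fit without virgin 1 the lactation difference was -0.39 (SE 0.17) for Dlx3 and -0.25 (SE 0.14) for Dlx5, and the post-lactation minus virgin difference was -0.53 (SE 0.17) and -0.44 (SE 0.14). None of the 4 was called (adjusted p between 0.426 and 0.726). Post-lactation minus lactation was -0.14 for Dlx3 (interval -1.10 to 0.82) and -0.19 for Dlx5 (interval -0.98 to 0.59) over all arrays. A dimmer probe set of Dlx3, with a mean of 4.83, did not show the low virgin 1: it measured 4.67, 5.33 and 4.57 in virgin arrays 1, 2 and 3.

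Dlx6 lies beside Dlx5, on chromosome 6 of GRCm38.p6 at chr6:6863334-6867970, with 9830 bases between it and Dlx5 at chr6:6877801-6882068. Its signal was uneven. It measured 3.64, 5.89 and 6.18 in virgin arrays 1, 2 and 3, then 6.18, 5.89 and 3.81 in lactation arrays, and 5.21, 6.13 and 5.70 in post-lactation arrays. The 2 lowest values, both under 4.87, were virgin 1 and lactation 3, which belong to set 1, as does post-lactation 1, the next lowest. In sets 2 and 3 the lactation value was exactly equal to the virgin value. Between 36.1% and 44.1% of all probe sets had such equal values in a pair of arrays of these sets, so a difference of 0 there is not a measured equality. Dlx6 averaged 5.24 ± 1.39 in virgin, 5.29 ± 1.29 in lactation and 5.68 ± 0.46 in post-lactation arrays, and without the block its intervals were the widest of the 7 genes (-1.48 to 1.59 for lactation minus virgin). After the set means were subtracted, r with Dlx5 was 0.13 over the 9 arrays.

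**Figure D2:**
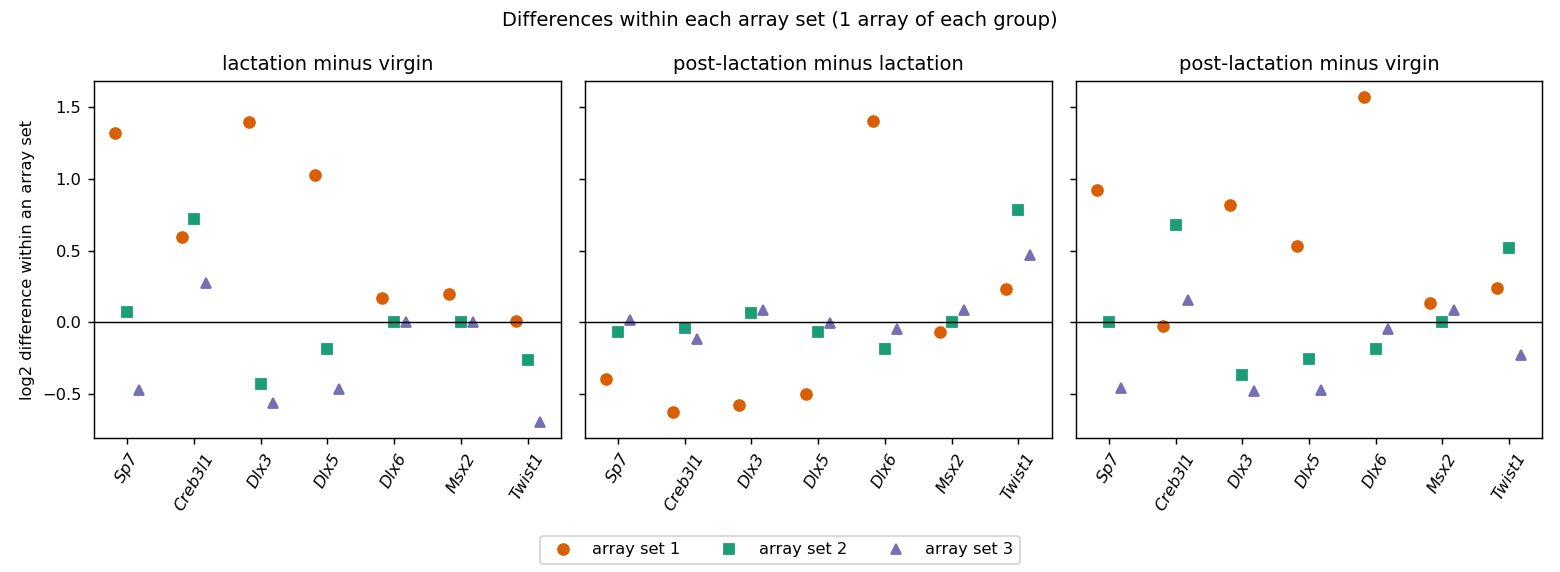
Log2 difference within each array set, which holds 1 array of each group, for 7 genes in 3 comparisons. In lactation minus virgin the set 1 points of Sp7, Dlx3 and Dlx5 lie at 1.32, 1.40 and 1.03 while their set 3 points lie below 0, and Creb3l1 is above 0 in all 3 sets. Twist1 is above 0 in all 3 sets in post-lactation minus lactation.

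Twist1 (chr12:33957671-33959831) had its highest group mean after weaning and its lowest in lactation. It measured 6.08, 6.66 and 7.32 in post-lactation arrays 1, 2 and 3, against 6.19, 6.54 and 5.85 in lactation arrays 1, 2 and 3. The groups overlapped over all arrays, and within each set the post-lactation array was the higher one, by 0.23, 0.78 and 0.47. Among all genes 12.8% were higher in all 3 sets in this comparison. The means were 6.69 ± 0.62 in post-lactation and 6.19 ± 0.34 in lactation arrays, 1.41-fold higher. The difference of 0.49 (SE 0.36, adjusted p = 1) was not called, and with the set as a block its interval was 0.09 to 0.90 (SE 0.17, unadjusted p = 0.025, adjusted p = 0.234). It stayed between 0.18 and 0.80 when any 1 array was left out of the fit without the block.

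Twist1 measured 5.84, 6.80 and 6.89 in virgin arrays 1, 2 and 3, again with virgin 1 lowest. Lactation minus virgin was -0.32 over all arrays (interval -1.11 to 0.48) and 0.01, -0.26 and -0.70 within sets 1, 2 and 3. Post-lactation minus virgin was 0.18 (interval -0.62 to 0.97), with 0.24, 0.52 and -0.23 in the sets. The order of means was post-lactation, virgin, lactation, with no neighbouring pair apart beyond its spread.

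Msx2 (chr13:53466881-53472780) was dim in all 3 groups, so no fold is given. It measured 3.79, 4.44 and 3.26 in virgin arrays 1, 2 and 3, then 3.26, 4.44 and 3.99 in lactation arrays, and 3.92, 3.35 and 4.44 in post-lactation arrays. The values followed the array set and not the group: set 2 gave 4.44 for all 3 groups, set 3 gave 3.26 to 3.35 and set 1 gave 3.79 to 3.99. A second probe set of Msx2 was dimmer still, with a mean of 2.30. No array reached the 4.87 line for either probe set, and differences at this level could not be read.

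The promoters of Twist1 and Msx2 are shown because these are the measured genes, 1 with the largest difference after weaning and 1 dim in every group, whose upstream sequence RefSeq gave in the table used (3 of the 8 genes matched, Runx2 being the other). Each is the 250 bases before the gene's start, 5′ to 3′ along the gene. Capitals mark matches on either strand to CANNTG (the E-box bound by Twist1 and other basic helix-loop-helix proteins), TAATTA (the homeodomain core of the Dlx and Msx kind), TGTGGT (the Runx core) or TATAAA.
Twist1, GRCm38.p6 chr12:33957421-33957670, plus strand: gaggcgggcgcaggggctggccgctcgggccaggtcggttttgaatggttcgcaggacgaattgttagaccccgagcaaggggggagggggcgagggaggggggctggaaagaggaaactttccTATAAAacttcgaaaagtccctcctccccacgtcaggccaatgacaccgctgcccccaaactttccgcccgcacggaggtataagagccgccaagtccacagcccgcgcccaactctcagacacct
Msx2, GRCm38.p6 chr13:53472781-53473030, minus strand: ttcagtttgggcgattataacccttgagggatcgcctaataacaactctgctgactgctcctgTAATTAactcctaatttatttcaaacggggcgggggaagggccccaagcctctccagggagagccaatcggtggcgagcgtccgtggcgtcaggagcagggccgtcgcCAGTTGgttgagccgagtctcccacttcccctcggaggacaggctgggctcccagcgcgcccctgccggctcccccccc

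The Twist1 window held 1 TATAAA, starting 126 bases before the gene, and the Msx2 window 1 TAATTA at 187 bases and 1 CANNTG at 79 bases before the gene. Of 32851 promoters of this length, 66.2% held CANNTG, 14.0% TGTGGT, 12.4% TATAAA and 4.84% TAATTA, and the printed matches do not overlap each other. Both windows were rich in CpG, with 18 in Twist1 and 16 in Msx2 against a median of 6. These matches describe letters and not bound sites.

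Across the 7 genes, none was called in any comparison. In lactation against virgin arrays 6 had a higher mean and 1, Twist1, a lower one, with a median difference of 0.12. In post-lactation against lactation arrays 3 were higher and 4 lower (median -0.14), and in post-lactation against virgin arrays 5 were higher and 2 lower (median 0.15). Of all 18194 genes limma called 0.0%, 0.709% and 0.176% in these comparisons, and 0.022%, 3.53% and 0.451% with the set as a block, so a count of 0 among 7 is near the background. At an unadjusted p under 0.05 the fit without the block held none of the 7, and the block fit held Creb3l1 in lactation minus virgin (8.01% of all genes) and Twist1 in post-lactation minus lactation (15.1%). In the other 2 comparisons none of the 7 had groups without overlap, against 7.63% of all genes for post-lactation minus lactation and 2.67% for post-lactation minus virgin. The 3 comparisons share arrays, so the values of a gene in them are not independent. Without virgin 1, in the block fit, 2 of the 7 were higher in lactation than in virgin arrays, Creb3l1 and the dim Msx2, and the median was -0.25. For Msx2 and Dlx6 the virgin and lactation values left in sets 2 and 3 were exactly equal. Their signs in this fit come from set 1, which then held no virgin array.

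**Figure D3:**
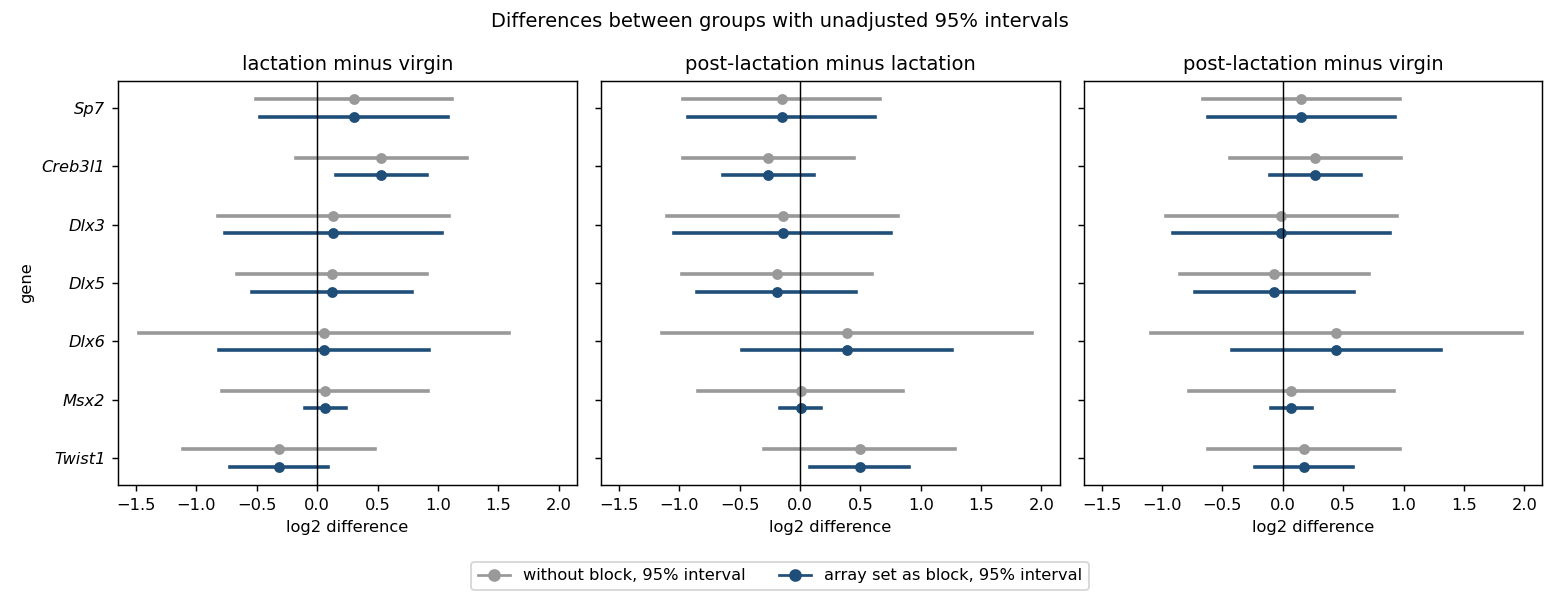
Log2 differences of 7 genes between group means with unadjusted 95% intervals, grey for the fit without a block and blue for the fit with the array set as a block. Every grey interval holds 0, and of the blue ones only Creb3l1 in lactation minus virgin (0.15 to 0.91) and Twist1 in post-lactation minus lactation (0.09 to 0.90) do not.

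Against virgin 2 and 3, virgin 1 was low for 6 of the 7 factors beyond the offset of its array's median. Within set 1 it lay below both other arrays for Sp7, Dlx3 and Dlx5 on this scale. Twist1 lay at 1.53 in virgin 1 and in lactation 3, and Dlx6 at -0.68 and -0.51. Creb3l1 lay at 2.16 in virgin 1 and 2.10 in post-lactation 1, so for these genes virgin 1 did not stand apart in its set. Against the mean of virgin 2 and 3 and each array's median, virgin 1 was lower by 2.02 for Dlx6 and 1.49 for Dlx3. It was lower by 1.13 for Sp7, 0.94 for Dlx5, 0.62 for Twist1 and 0.18 for Creb3l1, and the dim Msx2 was 0.32 higher. The median of all genes was 0.09 higher on this scale. Its osteocyte markers were lower by a median of 2.15, its B lymphocyte markers by 1.57 and its periosteum and tendon markers by 1.14, and its neutrophil markers were higher by 0.90. The neutrophil list, 11 of 12 genes measured, averaged 7.58 to 8.52 above the array's median in virgin arrays, 7.36 to 8.05 in lactation arrays and 7.78 to 8.09 in post-lactation arrays, with the highest value in virgin 1. Their part in the low values was not tested. In bulk RNA, fewer cells of a type and less RNA per cell cannot be told apart.

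Markers of other bone cells were read for the same reason. Osteoclast markers, 12 of 12 measured, averaged 2.60 to 2.62 above the median in virgin arrays, 3.34 to 3.72 in lactation arrays and 2.58 to 3.07 in post-lactation arrays. They moved with the higher Creb3l1 of lactation, and their part in it was not tested. In this bulk RNA the values do not show which cells made these transcripts, osteoclasts or the osteocytes themselves. With the block Dcstamp, a fusion protein of osteoclasts, was called higher in lactation than in virgin arrays (difference 1.46), and Acp5, Ctsk, Atp6v0d2, Dcstamp and Oscar were called lower after weaning than in lactation (-1.22 to -1.76). Chondrocyte markers lay at 0.04 to 0.74 over all arrays with 5 of 12 genes above the dim level in each comparison. Periosteum and tendon markers lay at 0.33 to 2.64 in virgin arrays, 0.82 to 0.84 in lactation arrays and 0.83 to 1.16 in post-lactation arrays, highest in virgin 3. Twist1 and Msx2 are also made by such cells. Of the other lists, the block fit called Camp, a neutrophil gene, higher (0.45) and Mylpf, a muscle gene, lower (-0.96) in post-lactation than in lactation arrays.

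Markers of red cell precursors differed most between the groups among the marker lists. The erythroid list, 10 of 12 genes measured, averaged 3.29 to 4.26 above the array's median in virgin arrays, 4.80 to 5.16 in lactation arrays and 0.15 to 1.02 in post-lactation arrays. All 10 were higher in lactation than in virgin arrays, with a median difference of 1.22 and none called. After weaning all 10 (Alas2, Epor, Ermap, Gata1, Hemgn, Kel, Klf1, Rhag, Slc4a1 and Trim10) fell against lactation in both fits, by a median of -4.77 (0.709% of all genes were called without the block and 3.53% with it). Against virgin arrays all 10 were lower, with a median of -3.50, and 8 were called, all but Epor and Gata1 (0.176% of all genes were called). With the block 7 were called, the same ones but Alas2 (0.451% of all genes). With virgin 1 also left out none of the 10 was called. This list was highest in lactation, as Creb3l1 was, and its part in the Creb3l1 values was not tested.

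The B lymphocyte list, 9 of 10 genes measured, ran the other way after weaning. It averaged 1.38 to 3.08 above the array's median in virgin arrays, 2.06 to 2.88 in lactation arrays and 3.40 to 4.15 in post-lactation arrays. All 9 were higher in post-lactation than in lactation arrays, with a median difference of 1.49, and none was called without the block. The block fit called 2, Dntt (1.60) and Vpreb1 (1.97), and 7 were called when virgin 1 was also left out (5.1% of all genes). Against virgin arrays the block fit also called Dntt higher. Twist1 was also highest after weaning, and the part of these markers in its values was not tested.

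Among 43 other transcription factors and partners of the bone lineage (of 46 written), none was called in any comparison by the fits with and without the block over all 9 arrays. In lactation against virgin arrays 21 were higher and 21 lower, with a median of 0. In the block fit without virgin 1, 9 of the 43 were higher, with a median of -0.10. Id1, a relative of Id2, differed by -0.63 over all arrays and by 1.55, -1.61 and -1.81 within the sets, so set 1 went against the others. Fosl1, a subunit of AP-1, differed by -0.59, with -0.89, -0.88 and 0 in the sets. Id2, a helix-loop-helix protein that cannot bind DNA, measured -0.48, -0.42 and -0.57 within the sets (difference -0.49, SE 0.29, adjusted p with the block 0.247). Tbx2 differed by 0.32, with 1.20, 0.29 and -0.55 in the sets. In post-lactation against lactation arrays 29 were higher and 14 lower (median 0.08). The E-protein gene Tcf3, whose product pairs with Twist1, differed by 0.59 with 0.75, 0.57 and 0.44 in the sets (SE 0.32, adjusted p with the block 0.259). Snai2, a transcriptional repressor found in mesenchymal cells, measured 9.50, 9.28 and 9.57 in post-lactation arrays 1, 2 and 3. It measured 9.01, 9.11 and 8.89 in lactation arrays 1, 2 and 3, without overlap (adjusted p with the block 0.42). Lef1, a nuclear partner of beta-catenin, differed by 0.61 after weaning, with 0.70, 0.59 and 0.56 in the sets. Runx1 differed by 0.59, with 1.67, -0.17 and 0.27 in sets 1, 2 and 3, so set 2 went against the others. Without virgin 1 the block fit called both Tcf3 and Lef1 higher after weaning (adjusted p = 0.0272 and 0.0191), against 0.259 and 0.296 with that array. This fit, chosen after seeing the data, called 5.1% of all genes here, so 2 of the 43 is near the background. The B lymphocyte markers moved with both genes, which B cell precursors also make, and their part in the differences was not tested. In post-lactation against virgin arrays 30 were higher and 13 lower, with a median of 0.05, or 0.00 in the block fit without virgin 1.

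Genes known as targets of Runx2 and Sp7, 19 measured of 23, stood higher in lactation than in virgin arrays in 18 cases, with a median of 0.44. Without virgin 1, in the block fit, this became 12 of 19 with a median of 0.17. None was called in this comparison. Col5a1, a fibril-forming collagen chain, measured 9.97, 10.32 and 10.43 in lactation arrays 1, 2 and 3, against 9.19, 9.23 and 9.41 in virgin arrays (difference 0.96, SE 0.21, adjusted p = 0.95, and 0.105 with the block). Sost differed by 0.78 (SE 1.11) and by 4.12, -0.82 and -0.95 within the sets, so its sign followed virgin 1. After weaning 10 were higher and 9 lower than in lactation arrays (median 0.02). Of the 19, 2 were called lower with the block (3.53% of all genes called) and none without it (0.709%). Vdr, the vitamin D receptor gene, measured 7.26, 7.35 and 7.63 in post-lactation arrays, against 8.46, 8.43 and 8.31 in lactation arrays (difference -0.99, adjusted p = 0.195, and 0.037 with the block). Mmp13, a collagenase, differed by -1.34 (adjusted p = 0.545, 0.0467 with the block, and 0.053 with the block and without virgin 1). Earlier reports of these samples already named Mmp13, so this list is not independent evidence. In post-lactation against virgin arrays 14 were higher and 5 lower (median 0.40, or 0.01 without virgin 1), with none called.

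The genes whose values followed each factor most closely were sought over the 9 arrays after the mean of each set was subtracted, among 10915 other genes above the dim level. Creb3l1 was followed by Kdelr3 (r = 0.98), by the Golgi membrane protein gene Yipf6 (0.96) and by Ifitm5 (0.96), which encodes a membrane protein of bone-forming cells. Ifitm5 measured 7.54, 7.86 and 7.82 in virgin arrays 1, 2 and 3, then 8.14, 8.54 and 8.25 in lactation arrays, and 7.53, 7.73 and 8.56 in post-lactation arrays. As for Creb3l1, its lactation arrays all exceeded its virgin arrays and post-lactation 3 stayed high. Ifitm5 was picked for this likeness over the same arrays, so the shared pattern is no separate evidence. Twist1 was followed by Cpm, a carboxypeptidase gene (0.97), the annexin gene Anxa5 (0.96) and the ribosomal protein gene Rpl37 (0.93). Sp7 was followed by Cacul1 (1.00), Ttc17 (0.99) and Cracr2b (0.99), Dlx3 by the lamin gene Lmna (0.99), Fasn (0.99) and Arap2 (0.99), and Dlx5 by Cracdl, Lmna and Hip1 (0.99 each). Lmna shared their low virgin 1, at 8.60 against 10.29 in virgin 2 and 10.46 in virgin 3. Dlx6 was followed by Kdr, Tubgcp5 and Bbs4 (0.99 each). Tubgcp5 and Bbs4 had exactly equal values across the groups in sets 2 and 3, so their r rests on set 1 alone. Kdr had such equal values in set 3, and Cacul1 and Ttc17, named beside Sp7, had them in set 2. With 9 arrays and so many genes, values of r this high are a description of these arrays.

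**Figure D4:**
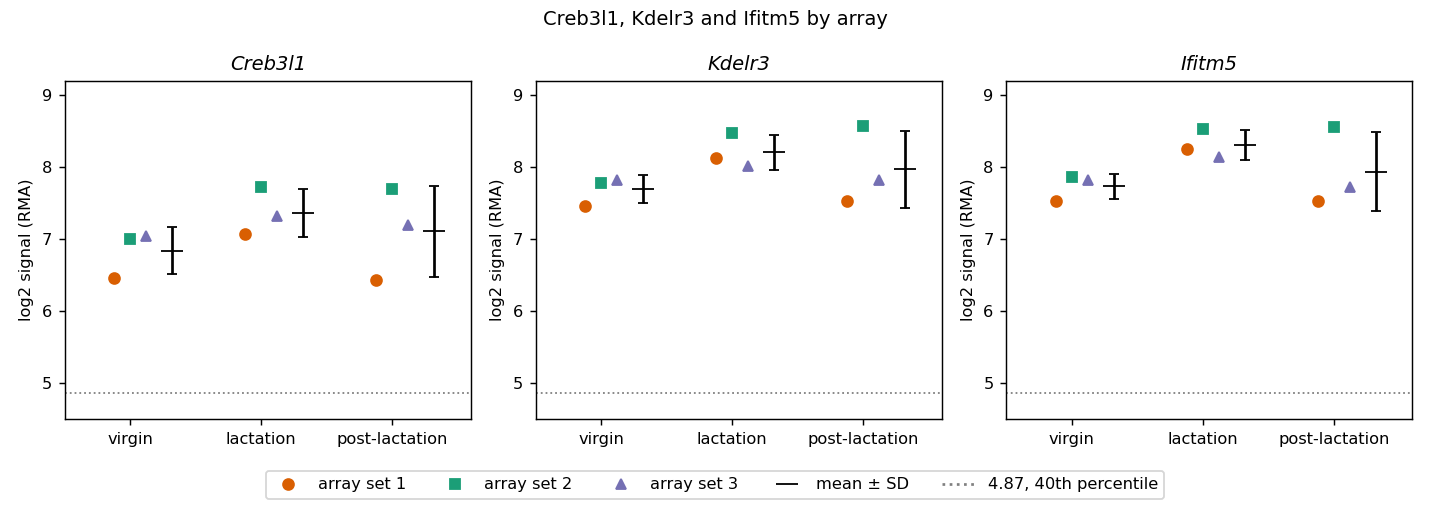
Log2 signal of Creb3l1 and of Kdelr3 and Ifitm5, 2 of the 3 genes most like it, in virgin, lactation and post-lactation arrays, with the array set as colour and shape, black bars for the mean ± SD of 3 arrays, and a dotted line at 4.87. In each gene the 3 lactation points lie above the 3 virgin points, and post-lactation 3 (set 2) is high while post-lactation 1 (set 1) is low. Kdelr3 and Ifitm5 were picked for their likeness to Creb3l1 over these arrays.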

How the data were processed

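The deposited table held log2 values for 45101 probe sets on 9 arrays, summarised with RMA per the submitters' processing notes. For versions and filters, nothing is stated in the labels. None was missing, and they ran from 1.55 to 14.9. Per the annotation table, 34958 probe sets named 1 gene, 932 several and 9211 none. The brightest probe set was used for each of 18194 genes. Arrays with over 1% exactly equal values were placed in 1 array set, since RMA summarises arrays together. Groups came from the titles. limma 3.58.1 in R 4.3.3 (lmFit, eBayes, 3 group means, 6 residual degrees of freedom) gave differences, and genes were called at an adjusted p (Benjamini-Hochberg, over all genes) below 0.05. The fit was tested on simulated data. Alternatives were array medians, quantile normalization, both blocks, a variance trend, no dim genes, averaged probe sets and each array left out. All 7 measured genes were named. List genes were named where called in either fit, and in the 3 bone gene lists otherwise up to 4 with the largest differences above the dim level, beside those said to be singled out. Marker lists were otherwise read by their levels. For likeness the 3 nearest genes were named. The members and lists were chosen with earlier results of these data known. The number of arrays limits the precision.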

Additional observations from a re-analysis of the deposited data

How the results depend on the processing

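The counts of called genes depended on how array offsets were handled. In lactation against virgin arrays limma called 0 genes (328 at an unadjusted p under 0.05), 1 with array medians subtracted, 1 after quantile normalization over all arrays and 4 with the set block, or 0 without virgin 1 in that fit (1853 at an unadjusted p under 0.05). In post-lactation against lactation arrays it called 129, with 205 after quantile normalization, 642 with the set block, 927 with the set block and without virgin 1 (an alternative chosen after seeing the data), and 76 to 138 when 1 array was left out, 76 without lactation 2 and 80 without post-lactation 2. In post-lactation against virgin arrays it called 32, with 82 with the set block, 4 with the set block and without virgin 1, and 13 to 34 when 1 array was left out, 13 without post-lactation 1 or 2, 16 without post-lactation 3 and 21 without virgin 1. The title numbers did not pair the arrays: same-numbered arrays correlated at -0.41 to 0.67 in their deviations from group means, against 0.47 to 0.73 within array sets, and the replicate block on those numbers called 0, 118 and 33 genes in the 3 comparisons.

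None of the 7 factors was called under any alternative run (smallest adjusted p 0.217). In the set block fit without virgin 1 the sign turned for lactation minus virgin in Sp7 (-0.14), Dlx3 (-0.39), Dlx5 (-0.25) and Dlx6 (-0.25). It also turned for post-lactation minus virgin in Sp7 (-0.29). For Dlx6 the virgin and lactation values left in sets 2 and 3 were exactly equal. Its -0.25 therefore comes from set 1, which then held no virgin array, and is not a measured reversal. Quantile normalization turned Msx2, dim throughout, to -0.02 in post-lactation minus lactation. Leaving out 1 array of the fit without the block gave the ranges below for the differences that turned. Each array left out made the sets unequal between the groups. The ranges can therefore hold set offsets beside the part of the single array. Lactation minus virgin ran from -0.20 to 0.58 for Sp7, -0.49 to 0.48 for Dlx3, -0.32 to 0.42 for Dlx5, -0.74 to 0.80 for Dlx6 and -0.22 to 0.38 for Msx2. Post-lactation minus lactation ran from -0.55 to 0.07 for Creb3l1, -0.31 to 0.07 for Dlx3, -0.35 to 0.83 for Dlx6 and -0.31 to 0.28 for Msx2. Post-lactation minus virgin ran from -0.35 to 0.43 for Sp7, -0.02 to 0.60 for Creb3l1, -0.63 to 0.34 for Dlx3, -0.51 to 0.22 for Dlx5, -0.35 to 0.92 for Dlx6, -0.21 to 0.38 for Msx2 and -0.16 to 0.48 for Twist1. Without virgin 1 the first 4 lactation differences were the lowest of their ranges. Creb3l1 in lactation minus virgin and Twist1 in post-lactation minus lactation kept their sign in every fit run. So did Twist1 in lactation minus virgin (-0.65 to -0.13 when 1 array was left out). Sp7 (-0.31 to -0.03) and Dlx5 (-0.39 to -0.05) in post-lactation minus lactation did so too. A kept sign was therefore not particular to the larger differences. The cause of the changes of sign was not tested.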
